A study of Mus musculus with 20 samples.

Results

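The 10 lipid droplet genes described here are 4 perilipins (Plin2, Plin3, Plin4 and Plin5), the secreted lipase inhibitor Angptl4, the lipases Pnpla2, Lipe and Mgll, and the acyltransferases Dgat1 and Dgat2, out of 57180 gene identifiers in the count table. They were chosen by function and selected on the measured rise of Plin4 with streptozotocin (STZ), so the differences between STZ and control mice given for them are a description. All 10 were matched by symbol and had counts. The study used bulk RNA sequencing of punches of the paraventricular thalamic nucleus (PVT) and the posterior insular cortex (pIC) of mice. STZ is a toxin of the insulin-producing beta cell, given as 1 intraperitoneal dose of 200.0 mg/kg to produce painful diabetic neuropathy (PDN), and the control mice received vehicle. Tissue was taken at week 7. There were 6 PVT libraries of STZ mice, 4 PVT libraries of control mice, 6 pIC libraries of STZ mice and 4 pIC libraries of control mice. The labels give no strain, sex, age or blood glucose. The labels do not state that each library is a separate animal, so p-values measure the spread between these samples.

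Neutral lipid is stored in cells in droplets, a triglyceride core under a single layer of phospholipid. Perilipins coat that surface and control how lipases reach the core. Triglyceride is made in a last step by Dgat1 or Dgat2 and broken down stepwise by Pnpla2 (adipose triglyceride lipase), Lipe (hormone-sensitive lipase) and Mgll (monoglyceride lipase). Droplets in the brain are known mainly from glia and ependymal cells, and Mgll is also the main enzyme that degrades the endocannabinoid 2-arachidonoylglycerol there. Angptl4 inhibits lipoprotein lipase, which releases fatty acids from blood lipoproteins.

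The upstream sequences of Plin4 and Plin2 are shown because these genes differed in opposite directions between STZ and control mice. They are the 250 bases before the RefSeq start sites on GRCm38.p6, Plin4 at chr17:56109783-56110032 and Plin2 at chr4:86670060-86670309, both on the minus strand. Capitals mark matches to the searched motifs.
Plin4: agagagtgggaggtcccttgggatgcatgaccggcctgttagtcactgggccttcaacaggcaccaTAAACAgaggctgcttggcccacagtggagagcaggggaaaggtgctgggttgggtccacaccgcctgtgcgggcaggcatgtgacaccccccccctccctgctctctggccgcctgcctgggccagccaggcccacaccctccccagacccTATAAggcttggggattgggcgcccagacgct
Plin2: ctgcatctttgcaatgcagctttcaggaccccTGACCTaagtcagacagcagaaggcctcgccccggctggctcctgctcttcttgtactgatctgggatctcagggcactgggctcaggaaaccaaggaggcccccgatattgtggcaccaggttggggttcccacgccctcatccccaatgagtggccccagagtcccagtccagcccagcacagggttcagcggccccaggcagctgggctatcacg
In Plin4 the capitals are a FOXO core at -184 and a TATA core at -32 from the start site, and in Plin2 a nuclear receptor half-site of PPAR and RXR at -218. The search covered both strands of windows of 250 bases before to 50 bases after the start for AGAACA (glucocorticoid receptor half-site), AGGTCA (nuclear receptor half-site), TAAACA (FOXO core), CACGTG (E-box) and TATAA (TATA core). The first and the FOXO core end in the same letters, AACA, and the E-box reads the same on both strands. Of 32851 promoters in the table, 16.1% held the glucocorticoid receptor half-site, 14% the nuclear receptor half-site, 12% the FOXO core, 6.02% the E-box and 22.8% the TATA core. Windows were found for 7 of the 10 genes, 10 windows in all, and Angptl4, Dgat1 and Dgat2 had none in the table. Among the others, Plin5 held a nuclear receptor half-site at -170 and a TATA core at -27. Mgll held a glucocorticoid receptor half-site at -178, a FOXO core at -240 and an E-box at -44. Lipe held an E-box at -155 in one window and a FOXO core at -119 in another. A match is a run of letters and no measured binding.

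The libraries held 17.9 M to 25.5 M counts each, and mitochondrial transcripts took 5.57 to 7.01% of them. Summed thalamic neuron markers were 258 to 1690 CPM (counts scaled to the library's total) in PVT of STZ mice and 307 to 809 CPM in PVT of control mice, above all pIC libraries of STZ mice (119 to 154 CPM) and of control mice (132 to 162 CPM). Excitatory cortical neuron markers ran the other way, at 199 to 1002 CPM over the PVT libraries and 1466 to 2501 CPM over the pIC libraries. The PVT punches also held choroid plexus markers, 1396 to 3505 CPM in STZ mice and 3098 to 6550 CPM in control mice. Striatal neuron markers ran from 243 to 3536 CPM in PVT of STZ mice and from 330 to 1557 CPM in PVT of control mice. Several libraries stood apart in such content. STZ PVT library 1 had the highest striatal sum of all, and STZ PVT library 5 the highest thalamic sum and the lowest striatal one. Control PVT library 4 had 16430 CPM of hypothalamic and pituitary markers, against 16.3 to 247 CPM in the other PVT control libraries, and STZ pIC library 3 had the highest striatal (3432 CPM) and myelin (6183 CPM) sums among the pIC libraries. Adipocyte markers were low, with a sum of 0.415 to 2.06 CPM over all libraries. Adipoq was at 0 in 18 of 20 libraries, Plin1, the adipocyte perilipin, in 8, Cidec in 12, Lep in 19 and Cfd in 20. Retn was at 0 in 4 and Fabp4 in 5, and Car3 had counts in every library, at 0.258 to 1.67 CPM. In such bulk samples, fewer cells of a type and less RNA per cell cannot be told apart.

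Plin4, whose long repeated helix coats young droplets and which is known mainly from fat and muscle, was the member with the largest difference. In PVT it had 53.2, 54.7, 64.6, 74.3, 69.4 and 58.3 CPM in the 6 STZ libraries, against 21.0, 7.82, 13.9 and 20.1 CPM in the 4 control libraries. The pIC levels were 24.9, 27.0, 44.8, 33.7, 14.5 and 24.6 CPM in the STZ libraries, against 6.98, 2.56, 5.81 and 9.96 CPM in the control libraries. Every STZ library lay above every control library of its region, and the lowest pIC value of STZ mice, in library 5, was below the highest PVT values of control mice. The means were 62.4 ± 8.43 CPM in PVT of STZ mice and 15.7 ± 6.11 CPM in PVT of control mice (SD, n = 6 and 4), a log2 fold change of 2.05 (SE 0.235). In pIC they were 28.2 ± 10.2 CPM in STZ mice and 6.33 ± 3.06 CPM in control mice, a log2 fold change of 2.16 (SE 0.404). By log2 fold change Plin4 ranked 11 of 17076 genes tested in PVT and 6 of 16189 in pIC. Without the STZ pIC library of highest Plin4, library 3, the log2 fold change in pIC was 1.98, and in PVT it was 2.09 without STZ library 1 and 2.02 without STZ library 5.

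Plin2, the perilipin of most tissues, whose protein is stable only on droplets, was lower in STZ mice. In PVT it had 7.09, 7.28, 7.38, 6.86, 6.57 and 7.03 CPM in STZ libraries, against 10.6, 9.69, 9.95 and 13.1 CPM in control libraries. The pIC levels were 4.75, 4.25, 5.17, 4.09, 3.37 and 4.01 CPM in STZ libraries, against 5.35, 7.00, 7.28 and 6.26 CPM in control libraries. The groups did not overlap in either region, though in pIC the highest STZ library and the lowest control library lay close together. The 6 PVT values of STZ mice varied by 4.15% (coefficient of variation), against 14.3% in PVT of control mice. The log2 fold change was -0.56 (SE 0.0902) in PVT and -0.59 (SE 0.132) in pIC, and -0.47 in PVT without control library 4, which had the highest Plin2.

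**Figure D1:**
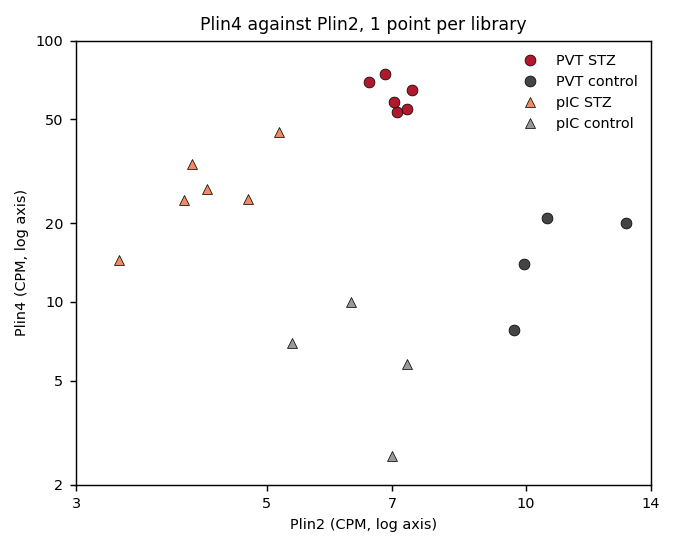
CPM of Plin4 (y axis, log scale) against CPM of Plin2 (x axis, log scale), 1 point for each of 20 libraries, circles for PVT and triangles for pIC, STZ in red or orange and control in grey. Within each region the STZ libraries lie above and to the left of the control libraries, with Plin4 to Plin2 ratios of 7.51 to 10.8 against 0.807 to 1.98 in PVT and 4.30 to 8.67 against 0.366 to 1.59 in pIC.

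The ratio of Plin4 to Plin2 CPM put both differences into 1 value per library, as the plot of Plin4 against Plin2 shows. It was 7.51 to 10.8 in PVT of STZ mice and 0.807 to 1.98 in PVT of control mice, and in pIC 4.30 to 8.67 in STZ mice and 0.366 to 1.59 in control mice. Per kilobase of exon, Plin4 made up 53.1 to 58.7% of the summed perilipin CPM in PVT of STZ mice, against 12 to 24.5% in PVT of control mice. In pIC its share was 46.6 to 60.5% in STZ mice and 8.55 to 29.8% in control mice. Plin3 held the largest median share in control mice, 49.8% in PVT and 47.6% in pIC, against 29.2% in either region of STZ mice. A higher Plin4 lowers the shares of the other perilipins by construction, and the CPM of Plin3 itself overlapped between STZ and control in both regions.

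Plin3, a soluble perilipin that binds droplets as they form, had a lowest, median and highest level of 18, 22.1 and 26.6 CPM in PVT of STZ mice, against 27.0, 23.2, 25.3 and 27.8 CPM in the 4 PVT libraries of control mice. These groups overlapped, with a log2 fold change of -0.19 (SE 0.10). In pIC it had 6.74, 9.72 and 14.3 CPM in STZ mice, against 9.77, 9.75, 11.2 and 8.33 CPM in control mice, a log2 fold change of -0.03 (SE 0.185). The highest of these pIC values was in STZ library 3, the one high in striatal and myelin markers, and without it the log2 fold change was -0.18. Plin5, which ties droplets to mitochondria in oxidative tissues, was the lowest of the 10 genes. In PVT it had 2.27, 1.24, 1.10, 1.60, 1.5 and 1.62 CPM in STZ libraries, against 2.23, 2.11, 2.11 and 3.01 CPM in control libraries. Of the STZ libraries only library 1 reached the control range, and the log2 fold change was -0.55 (SE 0.206). In pIC Plin5 had 1 to 10 counts in STZ libraries and 4 to 8 counts in control libraries and did not pass the filter on low counts, so a difference was not detectable at this depth.

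Angptl4 had 5.81, 4.93, 4.58, 5.94, 7.26 and 5.88 CPM in PVT of STZ mice, against 4.01, 2.92, 5.40 and 6.27 CPM in PVT of control mice. The pIC libraries had 7.25, 3.51, 4.54, 4.33, 5.65 and 3.22 CPM in STZ mice, against 2.48, 2.01, 2.08 and 1.98 CPM in control mice. The groups overlapped in PVT and lay apart in pIC, where the 4 control libraries were close together and the STZ libraries spread widely. The log2 fold change was 0.35 (SE 0.196) in PVT and 1.15 (SE 0.217) in pIC.

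Pnpla2, which takes the first fatty acid from triglyceride, had 33.0, 30.6, 37.7, 35.4, 32.8 and 31.4 CPM in PVT of STZ mice, against 27.6, 22.1, 28.5 and 30.8 CPM in PVT of control mice. In pIC it had 24.5, 23.6, 25.9, 21.7, 20.5 and 18.8 CPM in STZ mice, against 17.2, 19.0, 18.9 and 16.4 CPM in control mice. In each region a single STZ library fell inside the control range. The log2 fold change was 0.35 (SE 0.0873) in PVT and 0.34 (SE 0.0899) in pIC. Lipe, which cleaves diglyceride, had a lowest, median and highest level of 10.5, 12.5 and 14 CPM in PVT of STZ mice and of 11.2, 12.8 and 13.8 CPM in PVT of control mice. Its log2 fold change was 0.04 (SE 0.0927) in PVT and 0.20 (SE 0.0872) in pIC, where the levels were 8.21, 8.77 and 9.63 CPM in STZ mice and 7.11, 7.60 and 8.59 CPM in control mice. Mgll, which ends the chain by cleaving monoglyceride, had a lowest, median and highest level of 112, 178 and 224 CPM in PVT of STZ mice and of 124, 139 and 187 CPM in PVT of control mice. In pIC these were 226, 295 and 346 CPM in STZ mice and 233, 282 and 309 CPM in control mice. Both genes overlapped between groups in both regions, and the log2 fold change of Mgll was 0.27 (SE 0.201) in PVT and 0.09 (SE 0.111) in pIC.

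Dgat1, the acyltransferase of the endoplasmic reticulum, had 10.8, 12.1 and 14.9 CPM (lowest, median and highest) in PVT of STZ mice and 10.6, 13.4 and 15.1 CPM in PVT of control mice. In pIC it had 8.62, 10.7 and 12.3 CPM in STZ mice and 10.2, 11.1 and 12.3 CPM in control mice. The log2 fold changes were -0.02 (SE 0.108) in PVT and -0.08 (SE 0.105) in pIC. Dgat2, which also works at the droplet surface, had 54.0, 65.3 and 97.8 CPM in PVT of STZ mice and 59.4, 66.3 and 73.5 CPM in PVT of control mice. In pIC it had 44.2, 49.2 and 74.9 CPM in STZ mice and 46.6, 51.0 and 56.8 CPM in control mice. The STZ libraries spread more widely than the control libraries, with library 1 highest in PVT and library 3 in pIC, and the groups overlapped. The log2 fold change of Dgat2 was 0.17 (SE 0.160) in PVT and 0.06 (SE 0.134) in pIC.

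**Figure D2:**
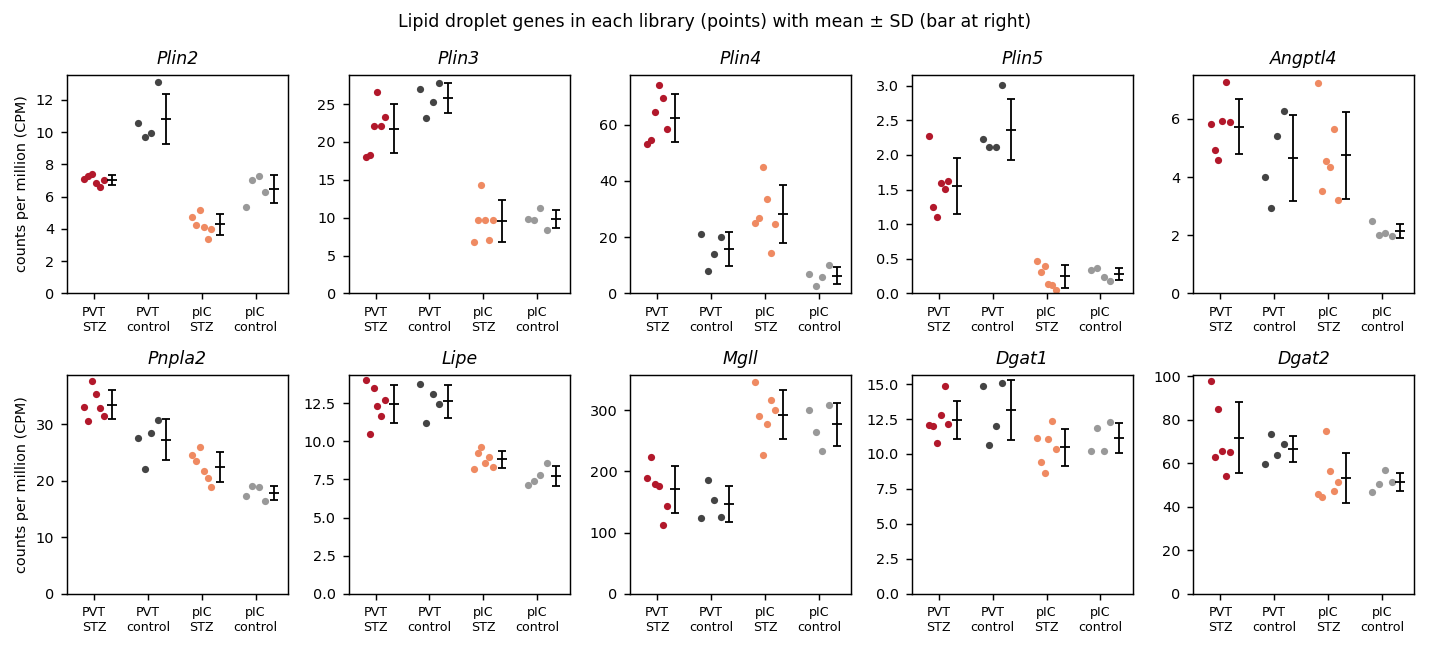
CPM (y axis, linear, from 0) of the 10 lipid droplet genes in every library (points), with the mean and SD of each group as a bar at the right, STZ left of control in PVT (n = 6 and 4) and pIC (n = 6 and 4). Plin4 lies apart between STZ and control in both regions, upward in STZ mice, and Plin2 lies apart downward.

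**Figure D3:**
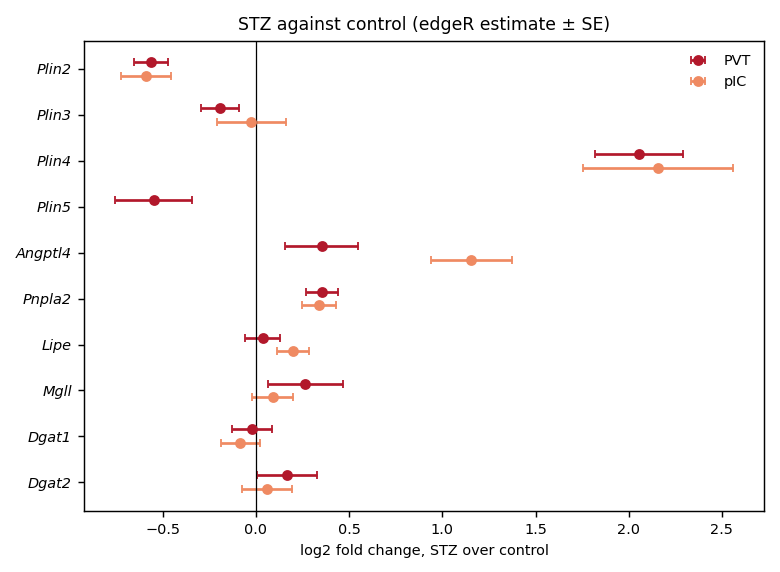
Log2 fold change of STZ over control (x axis, edgeR estimate with its SE) for each gene (y axis) in PVT (red) and pIC (orange). Plin4 stands at 2.05 and 2.16, Plin2 at -0.56 and -0.59, and Angptl4 at 0.35 and 1.15, and Plin5 has no pIC estimate.

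Counted with edgeR's quasi-likelihood test at a Benjamini-Hochberg adjusted p under 0.05 over all genes, 1 of the 10 genes was called higher in PVT of STZ mice (Plin4) and 1 lower (Plin2). Over all 17076 genes tested there, 0.474% were called higher and 1.59% lower, and 6.28% had groups that did not overlap in CPM, as did 2 of the 10 genes. With upper quartile scaling the split over all genes was 58 higher and 416 lower, in place of 81 higher and 272 lower. In pIC, 9 of the 10 genes were tested, and 2 were called higher (Plin4 and Angptl4) and 1 lower (Plin2), against 0.432% higher and 0.964% lower of 16189 genes. There 4.23% of genes did not overlap between groups, as did 3 of the 9. Since Plin4's difference chose the list, nothing is read from these counts. The median log2 fold change was 0.10 over the 10 genes and 0.00 over all genes tested in PVT, and 0.09 over 9 genes and 0.00 over all genes in pIC. The call of Plin2 in PVT was lost when the choroid plexus marker score entered the fit, with a log2 fold change of -0.52. The pIC calls depended on single libraries. Without STZ library 1, 2, 4 or 6 only Angptl4 was called, without STZ library 3 or control library 1 Angptl4 and Plin2, without STZ library 5 Angptl4 and Plin4, without control library 4 only Plin4, and without control library 2 or 3 none.

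Markers of some cell types also differed between STZ and control mice. Border macrophage markers (6 genes) summed to 19.1 to 27.9 CPM in PVT of STZ mice against 14.2 to 16.1 CPM in control mice, and to 21.1 to 28.7 CPM in pIC of STZ mice against 13.9 to 16.8 CPM in control mice. In each region 2 of these 6 genes were called higher and none lower by edgeR. Ependymal markers (8 genes) summed to 67.4 to 95.5 CPM in PVT of STZ mice and 111 to 164 CPM in PVT of control mice, with 7 of 8 genes called lower. Of the oligodendrocyte markers in PVT 3 of 8 were called lower, and of the fibroblast markers 2 of 6. In pIC 1 of 8 endothelial markers was called lower. The 8 adipocyte markers were low, as given above, and only 1 of them passed the filter on low counts in each region, without a call. Skeletal muscle markers (6 genes) summed to 3.78 to 6.31 CPM in PVT of STZ mice and 3.62 to 6.81 CPM in PVT of control mice. In pIC they summed to 7.05 to 10.1 CPM in STZ mice and 8.65 to 11.2 CPM in control mice, and none was called. The part of the macrophage, ependymal, oligodendrocyte and fibroblast markers in the differences of the 10 genes was not tested.

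The difference between the regions in the effect of STZ was estimated over all 20 libraries, as PVT minus pIC. None of the 10 genes was called, as none of 17427 genes was (0%), and DESeq2 called 4. An unadjusted edgeR p under 0.05 was found for 701 genes, no more than that threshold alone would give without any effect. For Plin4 the difference was -0.12 (SE 0.442) on the log2 scale, with an interval of -0.98 to 0.75. Angptl4 had the largest difference of the 10, -0.81 (SE 0.303), the only one with an unadjusted p under 0.05 (0.0143), and its adjusted p with edgeR was 1.00. The other 8 genes had differences between -0.41 (Plin5) and 0.16 (Mgll).

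Between the regions themselves, a contrast that did not choose the genes, most of the 10 differed. In STZ mice 6 were higher in PVT than in pIC (Plin2, Plin3, Plin4, Plin5, Pnpla2 and Lipe) and Mgll was lower, while 26% of 16489 genes were called higher and 23.1% lower. In control mice 6 were higher (Plin2, Plin3, Plin5, Angptl4, Pnpla2 and Lipe) and Mgll was lower, with 25.5% of 16614 genes called higher and 22.4% lower. The median log2 fold change of the 10 genes was 0.41 in STZ mice and 0.56 in control mice, against 0.02 over all genes in each. Among the libraries that stood apart in marker content, leaving out PVT library 1 or 5 of STZ mice gave 7 calls in STZ mice, and leaving out pIC library 3 gave 8, with Dgat2 added. In control mice there were 7 calls without PVT library 4. The punches also differed in content. Ependymal markers summed to 67.4 to 95.5 CPM in PVT and 7.52 to 16 CPM in pIC of STZ mice. In control mice these sums were 111 to 164 CPM and 6.96 to 11 CPM. Choroid plexus markers in pIC summed to 5.54 to 137 CPM in STZ mice and 5.8 to 22.7 CPM in control mice. Median myelin sums in PVT and pIC were 9047 and 3987 CPM in STZ mice, and 9820 and 3918 CPM in control mice. The part of this content in the differences between regions was not tested.

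Plin5 had the widest gap, at 1.56 ± 0.404 CPM in PVT and 0.247 ± 0.165 CPM in pIC of STZ mice (SD, n = 6 each), a log2 fold change of 2.48 (SE 0.346, edgeR adjusted p = 7.63e-05). In control mice it had 2.37 ± 0.435 CPM in PVT and 0.280 ± 0.0894 CPM in pIC (n = 4 each), a log2 fold change of 2.89 (SE 0.282, edgeR adjusted p = 2.35e-05). In pIC Plin5 had only 1 to 10 counts in STZ libraries and 4 to 8 in control libraries. It thus passed the count filter through PVT, where it is high, so these fold changes and p-values are a description. It was also the only one of the 10 called by edgeR's glmTreat against a minimum fold of 2, in either group of mice, where 3.1% of all genes in STZ mice and 4.7% in control mice were called higher in PVT, and 0.503% and 0.554% lower. Plin3 came next among the perilipins, with log2 fold changes of 1.06 (SE 0.163, edgeR adjusted p = 0.000172) in STZ mice and 1.24 (SE 0.0968, edgeR adjusted p = 5.46e-06) in control mice. Plin2 was higher in PVT by 0.60 (SE 0.0975, edgeR adjusted p = 0.000245) in STZ mice and by 0.58 (SE 0.131, edgeR adjusted p = 0.00393) in control mice. The ranges of these perilipins did not overlap between PVT and pIC in either group of mice.

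Plin4 was higher in PVT of STZ mice by 1.02 (SE 0.206, edgeR adjusted p = 0.00135), with 53.2 to 74.3 CPM in PVT against 14.5 to 44.8 CPM in pIC. In control mice its difference was 1.14 (SE 0.426), but PVT (7.82 to 21.0 CPM) and pIC (2.56 to 9.96 CPM) overlapped and the edgeR adjusted p was 0.0595. The settings under which it passed include upper quartile scaling and DESeq2, and it also passed without PVT control library 2 (log2 fold change 1.33) and without pIC control library 4 (1.44). Angptl4 was higher in PVT of control mice by 0.96 (SE 0.228, edgeR adjusted p = 0.00533), while in STZ mice the difference was 0.15 (SE 0.184, edgeR adjusted p = 0.535), with overlapping ranges of 4.58 to 7.26 CPM in PVT and 3.22 to 7.25 CPM in pIC.

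Of the lipases, Pnpla2 was higher in PVT by 0.45 (SE 0.0784, edgeR adjusted p = 0.000379) in STZ mice and by 0.44 (SE 0.0979, edgeR adjusted p = 0.00338) in control mice. Lipe was higher in PVT by 0.38 (SE 0.0766, edgeR adjusted p = 0.00122) in STZ mice and by 0.55 (SE 0.102, edgeR adjusted p = 0.00130) in control mice. Mgll was the exception in direction, with 171 ± 38.8 CPM in PVT and 293 ± 40.4 CPM in pIC of STZ mice, a log2 fold change of -0.90 (SE 0.154, edgeR adjusted p = 0.000432). In control mice it had 147 ± 29.5 CPM in PVT and 277 ± 34.9 CPM in pIC, a log2 fold change of -1.07 (SE 0.157, edgeR adjusted p = 0.000448). Dgat1 differed by 0.13 (SE 0.0967, interval -0.06 to 0.32) in STZ mice and by 0.07 (SE 0.120, interval -0.16 to 0.31) in control mice, and neither passed. Dgat2 differed by 0.31 (SE 0.160, edgeR adjusted p = 0.129) in STZ mice and by 0.21 (SE 0.0880, edgeR adjusted p = 0.0678) in control mice. It passed in STZ mice without pIC library 3 (0.43), and in control mice without PVT library 1 (0.25) and with upper quartile scaling (0.29).

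**Figure D4:**
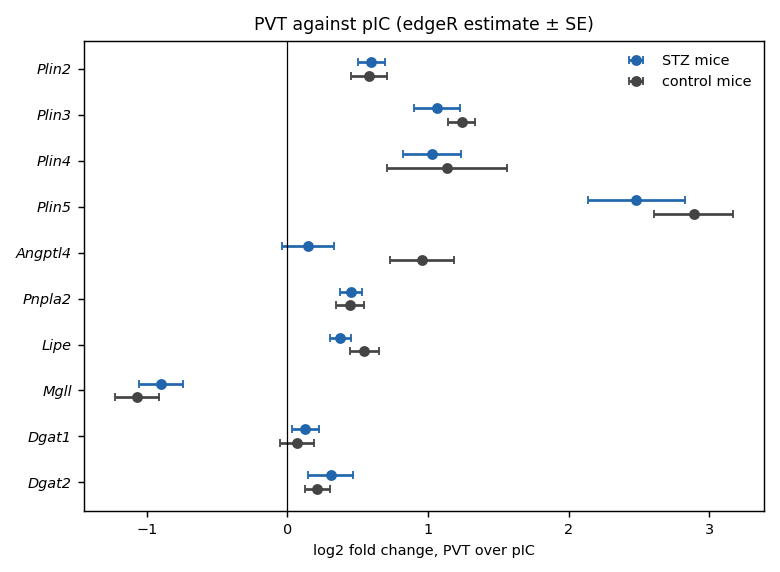
Log2 fold change of PVT over pIC (x axis, edgeR estimate with its SE) for each gene (y axis) in STZ mice (blue) and control mice (grey). Plin5 stands at 2.48 and 2.89, Mgll alone below 0 at -0.90 and -1.07, and Angptl4 at 0.15 in STZ mice and 0.96 in control mice.

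Per kilobase of exon, which lets levels be compared between genes, Mgll led in every group, followed by Dgat2 and Pnpla2. Mgll had 33.6 ± 7.64 CPM per kb in PVT of STZ mice and 29.0 ± 5.80 CPM per kb in PVT of control mice, and in pIC 57.7 ± 7.95 CPM per kb in STZ mice and 54.5 ± 6.87 CPM per kb in control mice. Mgll and Dgat2 overlapped only in PVT of STZ mice. Plin4 took rank 4 in PVT of STZ mice, at 10.8 ± 1.46 CPM per kb, overlapping Pnpla2 above it, and rank 7 in PVT of control mice, at 2.72 ± 1.06 CPM per kb, overlapping its neighbours Plin2 and Lipe. In pIC it took rank 4 in STZ mice, at 4.89 ± 1.77 CPM per kb, overlapping its neighbours Pnpla2 and Dgat1. It took rank 8 in pIC of control mice, at 1.10 ± 0.530 CPM per kb, overlapping Lipe and Angptl4. Plin5 was last in every group, at 0.746 ± 0.194 CPM per kb in PVT of STZ mice and 1.13 ± 0.209 CPM per kb in PVT of control mice.

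The genes around the droplet were counted in 7 lists of 152 genes, of which 151 were matched. In PVT 9 of 126 tested genes rose in STZ mice and none fell, and in pIC 7 of 123 rose and none fell, by edgeR. Over all genes tested, 0.474% were called higher and 1.59% lower in PVT, and 0.432% higher and 0.964% lower in pIC. In PVT no gene outside the list of glucocorticoid-induced genes passed (0 of 105), and in pIC 1 of 102 did. That list was drawn up with earlier results of these libraries known, so its count is not independent evidence of its direction. It had 9 of 21 genes higher in PVT (median log2 fold change 0.47) and 6 of 21 in pIC (0.34). The PVT count was 5 without control library 3 or 4, 4 without STZ library 4 and 1 once choroid plexus markers entered as a covariate, and the pIC count was 11 without STZ library 5, each over all 7 lists.

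The glucocorticoid-induced genes named here had the smallest p per region in a list drawn up with earlier results known, so their p-values are descriptive. Among them, Ddit4, an inhibitor of the mTOR kinase pathway, averaged 78.5 ± 4.81 CPM in PVT of STZ mice and 56.2 ± 5.78 CPM in PVT of control mice, a log2 fold change of 0.54 (SE 0.0681, edgeR adjusted p = 0.00188). Sult1a1, a sulfotransferase, rose in PVT by 0.92 (edgeR adjusted p = 0.00380) and in pIC by 0.90 (edgeR adjusted p = 0.000693). Arrdc2, an arrestin-domain protein, rose in PVT by 0.98 (edgeR adjusted p = 0.00433). In PVT, Sult1a1 (edgeR adjusted p = 0.126) and Arrdc2 (edgeR adjusted p = 0.128) no longer passed once choroid plexus markers entered as a covariate. In pIC, Fkbp5, a co-chaperone of the glucocorticoid receptor, had 65.6 to 101 CPM in STZ mice and 40.2 to 49.6 CPM in control mice, a rise of 0.94 (edgeR adjusted p = 0.00218). Nfkbia, the inhibitor of NF-kappa-B, rose there by 0.83 (edgeR adjusted p = 0.00108).

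Of 19 transcriptional regulators of lipid metabolism tested, none passed in PVT, where Ppargc1a had a log2 fold change of 0.21 (edgeR adjusted p = 0.208) and Epas1 0.18 (edgeR adjusted p = 0.134). In pIC 1 rose, Cebpd, a factor of early fat cell differentiation that also stands in the glucocorticoid list, at 6.66 ± 1.20 CPM in STZ mice and 3.35 ± 0.711 CPM in control mice (log2 fold change 0.99, SE 0.166, edgeR adjusted p = 0.00657). Of 19 targets of the fatty acid receptors called PPARs, none passed in PVT, where the median log2 fold change was -0.14 and Acot1, an acyl-CoA thioesterase, had -0.42 (edgeR adjusted p = 0.0607). Acadl, of mitochondrial fatty acid oxidation, had -0.19 in PVT (edgeR adjusted p = 0.0873). In pIC the uncoupling protein gene Ucp2 rose by 0.52 (SE 0.111, edgeR adjusted p = 0.0348). That call was lost without STZ library 1 or 4, without any 1 of the 4 control libraries and with all 20 libraries in 1 fit, with adjusted p up to 0.217.

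In the remaining lists no gene passed in either region with edgeR. Of genes of droplet coat and assembly (19 tested in each region), Cav1, the caveolar coat protein, had log2 fold changes of -0.37 in PVT (edgeR adjusted p = 0.0791) and -0.41 in pIC (edgeR adjusted p = 0.0764), and G0s2, the inhibitor of Pnpla2, had -0.54 in pIC (edgeR adjusted p = 0.183). In PVT 7 of these genes, and in pIC 4, had an unadjusted p under 0.05, against 17.8% of all genes tested in PVT and 11.8% in pIC. Of genes of triglyceride synthesis (18 tested), Agpat4 had -0.24 in PVT (edgeR adjusted p = 0.0566), and 6 genes in PVT and 2 in pIC had an unadjusted p under 0.05. Of lipolysis genes, 22 were tested in PVT and 21 in pIC, with 2 at an unadjusted p under 0.05 in each, and Ces1d, a triglyceride hydrolase, had 0.453 to 1.74 CPM in PVT of STZ mice and 1.25 to 6.23 CPM in PVT of control mice (log2 fold change -1.42, edgeR adjusted p = 0.133, and -0.78 without control library 4). Of genes of the lipoprotein lipase axis, to which Angptl4 belongs, 10 were tested in PVT and 8 in pIC, with 2 and 0 at an unadjusted p under 0.05. DESeq2 called 17 genes of the 7 lists in PVT and 15 in pIC, among them Cav1 in both regions and Agpat4, Acot1, Acadl and Ces1d in PVT.

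**Figure D5:**
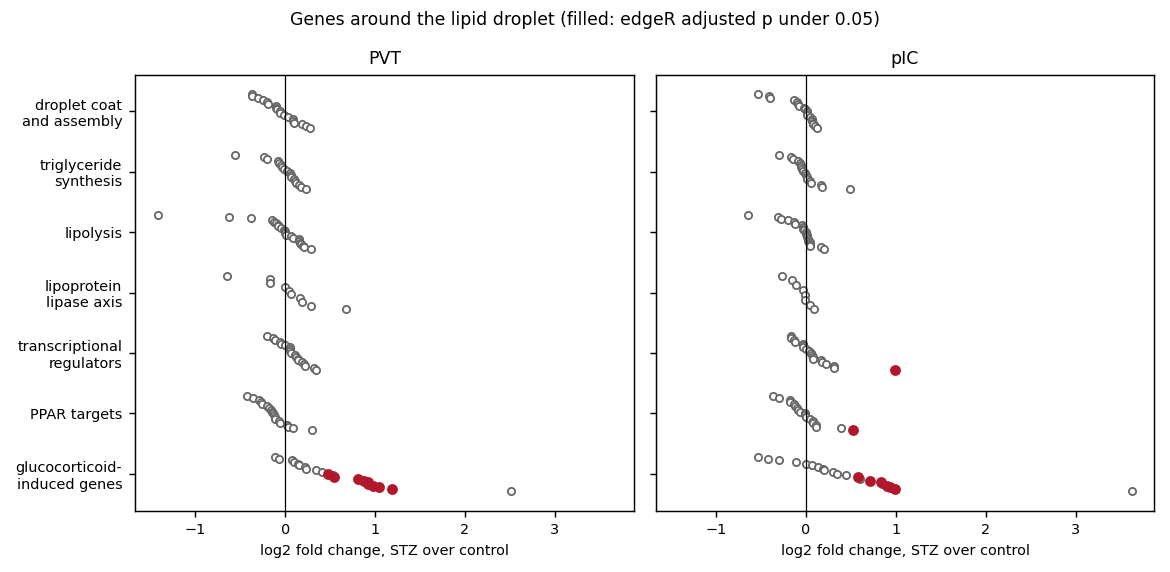
Log2 fold change of STZ over control (x axis) of each tested gene (point) in 7 lists of genes around the lipid droplet (rows) in PVT (left) and pIC (right), filled where the edgeR adjusted p was under 0.05. Of the filled points, 9 in PVT and 6 in pIC are glucocorticoid-induced genes (Cebpd is drawn again among the regulators), and Ucp2 is the filled PPAR target in pIC.

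Across all 20 libraries the genes whose log2 CPM was most like that of Plin4, of 13538 compared, were Cdh19 (Pearson r = 0.93), Ddit4 (0.92), Arrdc2 (0.89), Ptpn11 (0.89) and Smox (0.88). Cdh19, a cadherin, had 17.7 to 27.9 CPM in PVT of STZ mice, 12 to 17.4 CPM in PVT of control mice, 10.8 to 17.0 CPM in pIC of STZ mice and 6.95 to 10.4 CPM in pIC of control mice. These values share the differences between the 4 groups. With each group's mean taken away, the most alike were Pdia4 (0.83), Ttc21a (0.83), Prps1l3 (0.82), Acly (0.81) and Lpin1 (0.80). Of these, Ttc21a was low in pIC, at 0.137 to 0.565 CPM. All 5 were picked as the highest of 13538 genes, and how high such values reach without any relation to Plin4 was not tested. Among the 10 genes, with group means taken away, the highest correlations were of Plin2 with Pnpla2 (0.65), Plin5 with Pnpla2 (0.62) and Angptl4 with Dgat1 (0.50). The lowest were of Plin3 with Mgll (-0.59), Dgat1 with Dgat2 (-0.56) and Plin3 with Dgat1 (-0.47). These are descriptions over 20 libraries that share depth and punch content.

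In the annotation at hand, of the earlier build GRCm38, Plin4 overlaps the end of Hdgfl2 on the opposite strand, Lipe an antisense gene, 4732471J01Rik, and Mgll an antisense gene, Gm26588. Hdgfl2 had a median of 61.5 CPM in PVT of STZ mice and 64.4 CPM in PVT of control mice, and 53.9 CPM in pIC of STZ mice and 54.4 CPM in pIC of control mice. The libraries were stranded, but no source used here gives the strand setting of the counting, so the counts may hold reads of the partners. The shared exon sequence is 17 bases of Plin4 (0.294% of its exon length), 918 bases of Lipe (15.6%) and 167 bases of Mgll (3.29%). For Lipe and Mgll the partners' medians were 5.67 CPM (4732471J01Rik) and 1.83 CPM (Gm26588) in PVT of STZ mice and 7.12 CPM and 1.69 CPM in PVT of control mice.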

How the data were processed

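The authors deposited raw counts per Ensembl gene for 20 poly(A) libraries, 1 column each and none pooled. The submitters' processing notes name the build GRCm39 (mm39), while the aligner, counter, strand setting and annotation were not given in the sources used here. An annotation of GRCm39 was not used. Symbols came from the gene name and RefSeq tables, and exon lengths from GENCODE M21 (GRCm38). CPM is a gene's count scaled to the total of its library.

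Groups were taken from the labels. The 10 genes, the lists and the tests were chosen with earlier results of these data known. edgeR 4.0.16 (R 4.3.3) served for the fits over all genes (TMM scaling, robust quasi-likelihood test), after filterByExpr had removed low genes (a minimum of 10 counts, and of 15 in total), and adjusted p is Benjamini-Hochberg over all genes tested. Each comparison was fitted on its own libraries, and the difference between regions on all 20. Log2 fold changes come from these fits. The SE is the absolute log2 fold change divided by the square root of the quasi-likelihood F value. Intervals are the estimate plus and minus 1.96 SE, which is approximate and narrow for groups this small. Alternatives were RLE and upper quartile scaling, other filters, DESeq2 1.42.0, marker scores as covariates, glmTreat, a replicate block, each library left out in turn, and 1 fit of all libraries. The code was tested on simulated data. No library pair within a group was a duplicate (lowest chi-square per degree of freedom 4.00). At these depths the smallest members rest on few counts, which sets their precision.

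Named were the 10 genes, up to 3 called genes of smallest p per list and region (or 2 where none was called), and the 5 genes most like Plin4 in log2 CPM (prior count 2), from genes of at least 1 CPM with an established symbol. Not every named gene is described.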

Additional observations from a re-analysis of the deposited data

Results flagged for a closer look

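Plin5 in PVT of control mice was looked at again because 1 library lay far from the others. Control library 4 had 3.01 CPM, against 2.11 to 2.23 CPM in the other 3, and the gap to its nearest neighbour was 0.867 of the group's whole range, above Dixon's 95% critical value for 4 samples. The same library had the highest Plin2 of its group and 16430 CPM of hypothalamic and pituitary markers, whose part was not tested. Without it the log2 fold change of Plin5 in PVT, STZ over control, was -0.42 in place of -0.55. Of 40 groups of values checked for the 10 genes, this was the only one, and chance flags about 1 in 20.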

How the results depend on the processing

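Over the alternatives run, the log2 fold change of Plin4, STZ over control, lay between 1.84 and 2.22 in PVT and between 1.91 and 2.46 in pIC, and that of Plin2 between -0.62 and -0.47 in PVT and between -0.67 and -0.50 in pIC. Calls among the 10 genes in PVT were 2, and 1 with the replicate block and 1 with the choroid plexus score. DESeq2, all libraries in 1 fit and the thalamic score each gave 3, adding Pnpla2. In pIC leaving out single libraries gave 0 to 2 calls in place of 3, DESeq2 4 and the replicate block 2. Genes of the 7 lists called were 9 in PVT, and 14 with upper quartile scaling, 17 with DESeq2, 15 with all libraries in 1 fit, 16 with the thalamic score, 1 with the choroid plexus score and 4 to 10 without single libraries. In pIC they were 7, and 15 with DESeq2, 11 with the replicate block and 6 to 11 without single libraries. Over all genes, DESeq2 called 353 higher and 551 lower in PVT (edgeR 81 and 272) and 215 and 253 in pIC (edgeR 70 and 156), all libraries in 1 fit 213 and 466 in PVT, the thalamic score 436 and 641, and the choroid plexus score 6 and 55. The replicate block by equal number, a link between STZ and control libraries that the labels do not state, gave 19 and 53 in PVT and 106 and 134 in pIC. Fits without a library have fewer samples; the cause of the other shifts was not tested.

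Between regions, a minimum fold of 2 left 1 called gene of 7 in STZ mice and 1 of 7 in control mice, by its construction, and over all genes 511 higher and 83 lower in STZ mice and 781 higher and 92 lower in control mice. Differences near 0 in the STZ effect between regions turned sign. Plin4 (-0.12) ran from -0.411 to 0.153 without single libraries. Plin2 (0.01) was -0.009 and Pnpla2 (0.00) -0.018 with upper quartile scaling. Without single libraries Plin2 and Pnpla2 ran from -0.040 to 0.104 and from -0.061 to 0.054, Dgat1 from -0.017 to 0.112 and Dgat2 from -0.013 to 0.217.

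The labels do not say whether equal labels mark 1 animal, so the libraries were not treated as pairs in the main fits. If they do mark 1 animal, the p-values between regions ignore that pairing. Not every pair of equal label across regions correlated above 0.1, but this cannot exclude that pairing, since punch content also enters these correlations. STZ and control libraries of equal number carry different labels and opposite treatments, so they are not 1 animal. The labels state no other link between them. Deviations of same-numbered STZ and control libraries correlated above 0.1 in 1 of 4 pairs in PVT and 2 of 4 in pIC, and of the same label across regions in 6 of 10, and these 6 correlated best with their own, a hint from the data. With that label as a replicate block, Plin4 passed between PVT and pIC in control mice (log2 fold change 1.19, edgeR adjusted p = 0.00053). Depth limited Plin5 in pIC, at 1 to 10 counts.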
